A study of Mus musculus with 4 samples.

Results

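The genes described here encode the channels that carry calcium, sodium and mixed cation current into neurons: voltage-gated calcium channels with their auxiliary subunits, voltage-gated sodium channels, hyperpolarization-activated HCN channels, the sodium leak channel gene Nalcn and the TRPC channels. Members were chosen by gene symbol alone, with no measured value, and 50 of the 22376 genes in the files carried such a symbol. They comprised 10 calcium channel alpha1 genes, 4 alpha2delta, 4 beta and 8 gamma genes, 9 sodium channel alpha and 4 beta genes, 4 HCN genes, Nalcn and 6 TRPC genes. All 50 were listed in striatal sections and 48 in midbrain sections, where Cacna1f and Scn10a were not analysed.

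The study asked how prolonged activation of dopamine neurons changes gene expression in the midbrain and striatum, by Visium spatial transcriptomics on 10 µm sections of 8 male DAT (iCre/iCre) mice, the DATIREScre line of the methods, aged 3 to 4 months. Their Cre, under the dopamine transporter promoter, limits the virus cargo to cells that use that promoter. In GqCNO mice (801, 804 and 781) and GqVeh mice (802, 784 and 785), a conditional AAV carrying hM3Dq-mCherry, a designer receptor coupled to Gq, was injected into the midbrain on both sides; the CNO alone mice (C2W2 and C1W7) received no virus. GqCNO and CNO alone mice drank 300 mg/L of the receptor's ligand clozapine-N-oxide in 2% sucrose for 1 week, GqVeh mice drank 2% sucrose, and every mouse was housed alone with a running wheel. The GqVeh and CNO alone mice together are called the 5 control mice.

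Discs of the array that overlay 1 region were averaged by the authors for each mouse. The regions were the substantia nigra (SN), ventral tegmental area (VTA) and thalamus in midbrain sections, and the caudate putamen (CP), lateral septum (LSX) and white matter in striatal sections. Thalamus values existed for 7 mice, without 801. A disc holds several cells, so every value is that of mixed tissue, and fewer cells of a type cannot be told apart from less RNA per cell. SN and VTA discs were picked for a TH-stained soma, mCherry-positive in injected mice, and for passing a threshold for at least 2 of Slc6a3, Slc18a2 and Th, and CP discs for Ppp1r1b. By position and markers the authors chose thalamus discs for Prkcd, Ptpn3 and Synpo2, LSX discs for Prkcd and white matter discs for Mbp, and they dropped discs rich in Gfap and Aldh1l1 (astrocytes) or Aif1 and P2ry12 (microglia). None of these is a channel gene.

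Neurons fire through these channels. Sodium channel alpha subunits carry the spike, their beta subunits set gating and placement, and calcium channels couple the spike to calcium entry, with beta and alpha2delta subunits bringing the pore to the membrane. Several gamma genes (Cacng2, Cacng3, Cacng4, Cacng8) encode proteins that also escort AMPA receptors. Midbrain dopamine neurons fire on their own, without synaptic drive, and L-type calcium channels (Cacna1c, Cacna1d), HCN channels, Nalcn and TRPC channels are known to take part in that pacemaking. TRPC channels open downstream of receptors that couple to Gq and phospholipase C.

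The depth differed widely between regions. A column, the values of 1 region in 1 mouse, held 7779 to 71906 unique molecular identifiers (UMIs, counted RNA molecules) in the SN from 1 to 7 discs, and 25808 to 350222 in the VTA from 2 to 49 discs. The thalamus held 80837 to 444790, the CP 4300381 to 7977003, the LSX 80525 to 1354667 and the white matter 119422 to 405313. Levels below are UMIs per 10000 UMIs of the column. The SN columns of mice 801, 784 and 781 were the shallowest, at 7779, 11644 and 14717 UMIs. The LSX column of GqCNO mouse 804, at 80525 from 7 discs, stood apart, with 0 UMIs of the septal gene Cacng5 and 1 of Trpc7. The LSX column of control mouse 784 was also shallow, at 107462 UMIs from 6 discs. All 48 genes together gave 513 UMIs in the SN of 8 mice, 8 of them had none there and 29 had under 10. In the CP all 50 had UMIs, 130611 in total.

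The regions matched their labels by markers, some of which had served to pick the discs. In control mice the summed level of 9 dopamine neuron markers was 57.0 to 98.9 in the SN and 55.0 to 85.5 in the VTA, against 0.990 to 2.57 in the thalamus. The sum of 8 striatal projection neuron markers was 76.2 to 90.1 in the CP and 3.56 to 5.30 in the LSX.

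**Figure D1:**
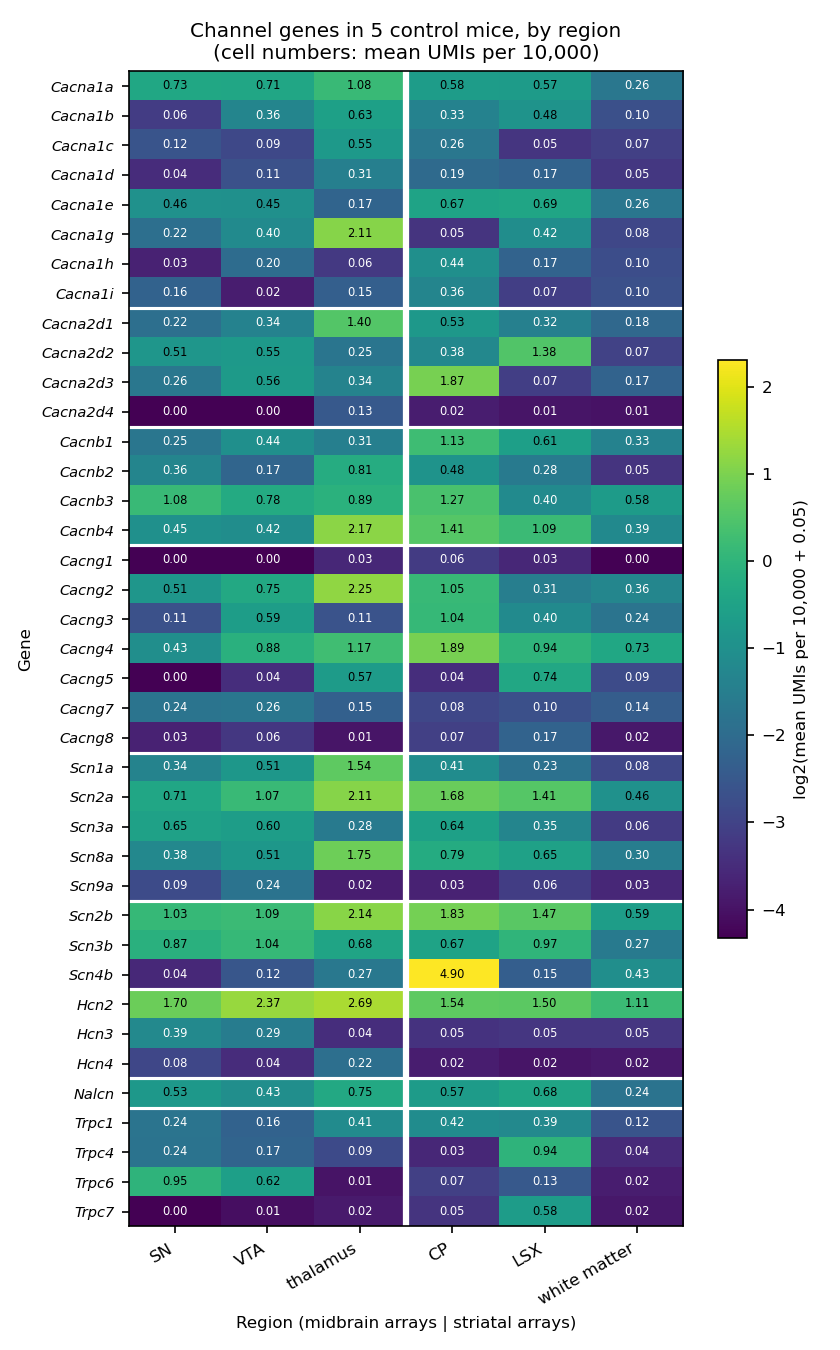
Mean level of 39 channel genes with at least 100 UMIs over all columns, in the 5 control mice. Rows are genes, grouped by family, columns are regions, colour is log2(mean UMIs per 10000 + 0.05) and the number in each cell is the mean. Rows are to be read across regions only, and the midbrain and striatal arrays, split by the white line, were normalised separately. Trpc6 is brightest in the SN and VTA, Scn4b in the CP and Trpc4 in the LSX.

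In control mice the dopaminergic regions were set apart from the thalamus by Trpc6, which was higher, and by a longer list of calcium and sodium channel genes that were lower. Trpc6 (chromosome 9, 8543867 to 8680752 in GRCm38.p6) encodes a cation channel opened by diacylglycerol. Its level in the SN was 1.21, 1.72 and 0.877 in GqVeh mice 802, 784 and 785, and 0.529 and 0.417 in CNO alone mice C2W2 and C1W7. In the VTA it was 1.05, 0.540, 0.775, 0.412 and 0.314 in the same order. In the thalamus 1 control mouse, 784, had 2 UMIs and the other 4 had none, among 1047246 UMIs. No thalamus value reached any SN or VTA value of a control mouse. The log2 difference was 1.42 ± 0.29 (SE, n = 5 mice) for the SN against the thalamus (adjusted p = 4.63e-05, limma) and 1.09 ± 0.19 for the VTA (adjusted p = 0.000213, limma), with the same sign in 5 of 5 mice in each comparison. Trpc6 was tested only because of its SN or VTA level, since its thalamus level was under the filter on low values.

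Outside the dopaminergic regions, Trpc6 was low but measurable at the greater depth. Over the control mice it gave 200 UMIs in the CP, a pooled level of 0.0708 (exact 95% Clopper-Pearson interval 0.0613 to 0.0813). In the LSX it gave 59 UMIs, a pooled level of 0.162 (0.123 to 0.209), and in the white matter 2 UMIs among 1240686. The pooled level in the SN was 0.790 (0.468 to 1.25, from 18 UMIs) and in the VTA 0.470 (0.343 to 0.629, from 45 UMIs). These intervals cover counting error only. The intervals of the SN and VTA overlapped each other, and both lay above those of the 4 other regions.

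Between the SN and thalamus, 14 of the 26 genes tested differed at an adjusted p under 0.05, 1 higher and 13 lower, where 15.5% of all 6453 genes did (5.45% higher and 10% lower). Between the VTA and thalamus it was 15 of 27, 3 higher and 12 lower, where 26.8% of all 6502 genes did (12.9% higher and 13.9% lower). The median log2 difference over the channel genes tested was −0.73 in the SN and −0.43 in the VTA, against −0.05 and 0.00 over all genes. The 22 and 21 other members listed were too low to test. Of the genes called, 6 in each comparison passed the filter on low values only through the region where they were high. Those called higher were Trpc6 both times and Cacng3 and Cacna1e in the VTA, so that 0 genes called higher had passed it in both regions. Those called lower were Cacna1b, Cacna1c, Cacna1g, Cacna2d1 and Cacng5 in the SN, and Cacna1c, Cacnb2 and Cacng5 in the VTA. A count over the tested genes is therefore not a count over all members. Among 5 neuron markers, 3 were lower in the SN than in the thalamus and 2 in the VTA, and the part that neuron content has in these differences was not tested.

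Cacna1g, which encodes the T-type calcium channel behind thalamic burst firing, had the most negative log2 difference of the SN from the thalamus. Its thalamus level was 2.09, 2.16, 1.56, 2.72 and 2.00 in mice 802, 784, 785, C2W2 and C1W7, and its VTA level was 0.468, 0.147, 0.775, 0.274 and 0.343. In the SN 4 of the 5 mice had 1 or 2 UMIs and mouse 784 had none. Against the SN it passed the filter on low values only through the thalamus. The log2 difference was −1.87 ± 0.29 for the SN (adjusted p = 1.52e-08, limma) and −1.56 ± 0.20 for the VTA (adjusted p = 9.18e-06, limma).

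The calcium channel beta subunit gene Cacnb4 stood at 1.89 to 2.34 in the thalamus of control mice, 0 to 0.820 in the VTA and 0 to 1.32 in the SN. Its log2 difference was −1.65 ± 0.29 in the SN and −1.60 ± 0.19 in the VTA. Other genes lower in both dopaminergic regions were the alpha2delta gene Cacna2d1 (−1.52 and −1.24), the AMPA receptor escort gene Cacng2 (−1.53 and −1.15), and the L-type gene Cacna1c (−0.77 and −0.84). Of the sodium channel genes, Scn8a (−1.44 and −1.16), Scn1a (−1.32 and −1.01), Scn2a (−1.18 and −0.73) and the beta subunit gene Scn2b (−0.90 and −0.75) were lower in both. The gamma subunit gene Cacng5 was lower in both (−1.08 and −0.97), Cacnb2 in the VTA (adjusted p = 0.000567, limma), and Cacna1b (−0.97) and Cacng4 (−0.80) in the SN. In the SN the calls for Cacna1b and Cacng4 were lost without mouse 802 or C2W2, those for Cacng4 and Cacna1c without C1W7, that for Cacna1c also without 785, 802 or C2W2, and that for Scn2b without 784. In the VTA that for Scn2a was lost without 784, 802, C1W7 or C2W2.

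In the VTA, 2 genes besides Trpc6 were higher than in the thalamus, both tested only because of their VTA level. Cacng3 stood at 0.593 ± 0.188 (SD, n = 5) against 0.112 ± 0.074, a log2 difference of 0.83 ± 0.19 (adjusted p = 0.00264, limma). Cacna1e, the R-type calcium channel gene, stood at 0.450 ± 0.206 against 0.169 ± 0.128, a log2 difference of 0.50 ± 0.18 (adjusted p = 0.0460, limma), a call that was lost in 8 of 11 alternative settings, among them the removal of any 1 of the 5 mice.

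**Figure D2:**
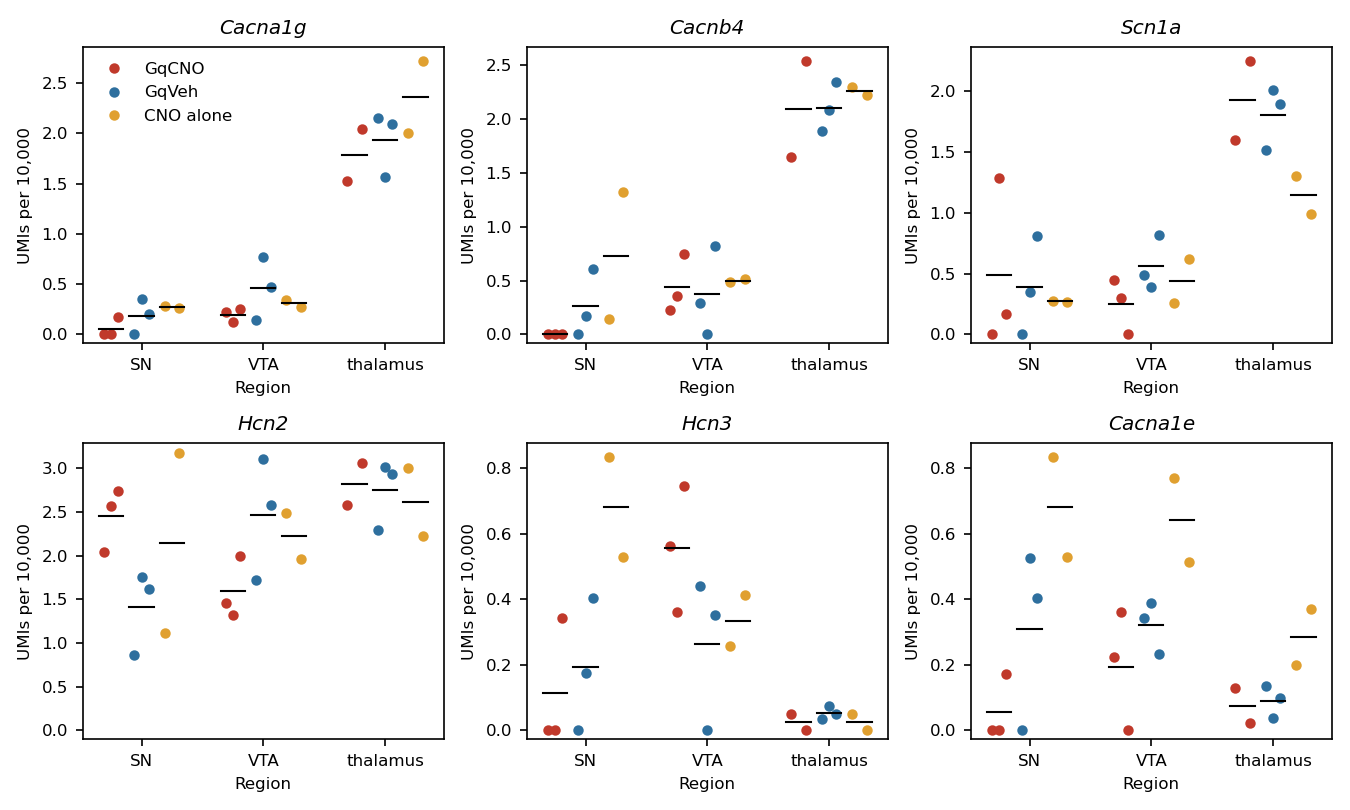
Levels of 6 channel genes in the SN, VTA and thalamus by mouse. Each point is 1 mouse (y axis, UMIs per 10000), colours are the 3 groups and black bars are group means; GqCNO has 2 mice in the thalamus. Cacna1g, Cacnb4 and Scn1a lie higher in the thalamus, the control means of Hcn2 are 1.70, 2.37 and 2.69 in that order, and the control means of Hcn3 and Cacna1e are higher in the SN and VTA than in the thalamus.

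The other pacemaking genes had varied levels. Hcn2, a fast HCN channel gene, was detected in every column, with a control mean of 1.70 ± 0.90 (SD, n = 5) for the SN. The means were 2.37 ± 0.55 for the VTA and 2.69 ± 0.40 for the thalamus, and no difference among these passed the test. The smallest p was that of the SN against the thalamus (−0.61 ± 0.26, unadjusted p = 0.0187 and adjusted p = 0.0937, limma). Hcn3 was too low to test against the thalamus, and its values are given from pooled UMIs, with intervals of counting error only. In control mice it gave 11 UMIs in the SN, a pooled level of 0.483 (exact 95% interval 0.241 to 0.863), 33 in the VTA, at 0.345 (0.237 to 0.484), and 5 in the thalamus, at 0.0477 (0.0155 to 0.111). Nalcn was at 0.526 ± 0.350 for the SN, 0.432 ± 0.414 for the VTA and 0.746 ± 0.539 for the thalamus, with overlapping values. Hcn4 gave 4 UMIs in the SN of all 8 mice.

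The L-type genes were barely sampled in the SN. Cacna1d gave 1 UMI there over 8 mice and Cacna1c 3 UMIs. In the VTA of control mice each gave 11 UMIs, a pooled level of 0.115 (0.0574 to 0.206). The depth of the SN columns therefore sets no useful level for Cacna1d: 1 UMI among 227937 in the control mice allows up to 0.244 per 10000 (exact 95% interval). Trpc5 had no UMI in the SN or VTA.

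No channel gene passed the test between the SN and VTA of control mice. Of the 24 tested, 0 passed in limma and 0 in edgeR, and 1, Cacng3, had an unadjusted p under 0.05 (log2 difference −0.90 ± 0.31, adjusted p = 0.541). Of all 6180 genes, 0.0809% passed.

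In the striatal sections, all 3 pairs of regions differed in most of the channel genes tested. In the CP against the LSX, 27 of 39 genes tested differed, 18 higher and 9 lower, where 31.4% of all 11097 genes did (12.8% higher and 18.7% lower). Against the white matter, 29 of 34 were higher in the CP, and 0 were lower by the limma test, also at an unadjusted p under 0.05, where 40.5% of 11093 genes differed (26.1% higher and 14.5% lower). Between the LSX and white matter, 26 of 40 differed, 24 higher and 2 lower, where 35.5% of 11196 genes did (24.7% higher and 10.7% lower). The median log2 difference was 0.21 for the CP against the LSX over channel genes and −0.06 over all genes. For the CP against the white matter these medians were 1.48 and 0.21, and for the LSX 1.26 and 0.28. In the 3 comparisons 4, 2 and 7 of the genes called had passed the filter on low values only through the region where they were high. They included Cacna1g, Cacng5 and Trpc4 in the CP against the LSX. Against the white matter they included Cacnb2 for the CP, and Trpc4 and Trpc7 for the LSX. All 5 neuron markers were lower in the white matter than in the CP and LSX. In the CP against the LSX, 6 of 6 oligodendrocyte markers and 8 of 8 microglia markers were higher and 3 of 5 neuron markers lower. The part of these in the differences was not tested.

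Scn4b encodes the beta4 sodium channel subunit, known from striatal projection neurons. Its CP level was 5.38, 4.31 and 4.36 in GqVeh mice 802, 784 and 785, and 6.04 and 4.39 in CNO alone mice C2W2 and C1W7. The LSX held 0 to 0.207 and the white matter 0.190 to 0.921. The CP values stood above all others, by 4.85 ± 0.26 on the log2 scale against the LSX (adjusted p = 2.01e-07, limma) and 3.55 ± 0.20 against the white matter (adjusted p = 6.07e-11, limma).

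Cacna2d3 followed the same order. This alpha2delta gene had 1.87 ± 0.15 (SD, n = 5) in the CP, 0.068 ± 0.047 in the LSX and 0.166 ± 0.080 in the white matter, and the CP was higher by 4.15 ± 0.23 and 3.23 ± 0.20 on the log2 scale. Also higher in the CP than in the LSX were the T-type genes Cacna1i (1.99) and Cacna1h (1.21), Cacna1c (1.65), Cacnb3 (1.58), Cacng2 (1.64) and Cacng3 (1.30).

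A different set of channel genes was higher in the LSX than in the CP. Trpc4, a TRPC gene long known from the lateral septum, stood at 1.04, 0.838 and 0.822 in GqVeh mice and 1.10 and 0.877 in CNO alone mice, against 0.0298 to 0.0365 in the CP. No CP value came near an LSX value, and the log2 difference of the CP minus the LSX was −3.56 ± 0.16 (adjusted p = 6.29e-08, limma). Trpc7, which encodes another diacylglycerol-gated TRPC channel, was at 0.579 ± 0.185 in the LSX and 0.051 ± 0.011 in the CP, a difference of −2.59 ± 0.20.

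Cacng5 (−3.02 ± 0.24), Cacna1g (−2.25 ± 0.18) and Cacna2d2 (−1.74 ± 0.15) were lower in the CP than in the LSX in 5 of 5 control mice. Cacng8 was lower in the CP (−0.83 ± 0.23), a call lost in 5 of 12 alternative settings, among them the removal of 802, C1W7 or C2W2. Against the white matter, the LSX was higher for Trpc4 (3.72), Cacna2d2 (3.54), Trpc7 (3.30), Cacng5 (2.61), Cacna1b (2.07) and Cacna1g (1.98).

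Hcn2, Nalcn and Cacna1a did not pass the test between the CP and LSX. Hcn2 stood at 1.54 ± 0.25 and 1.5 ± 0.14, Nalcn at 0.570 ± 0.065 and 0.679 ± 0.183, and Cacna1a, the P/Q-type gene, at 0.580 ± 0.079 and 0.567 ± 0.089. Against the white matter the CP was higher for Hcn2 (0.54, lost without C1W7), Nalcn (1.24), Cacna1a (1.07), Cacna1d (1.46), Cacna1c (1.64), Cacna1e (1.45), Scn1a (1.81), Scn2a (1.92), Scn3a (2.71) and Scn8a (1.42).

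**Figure D3:**
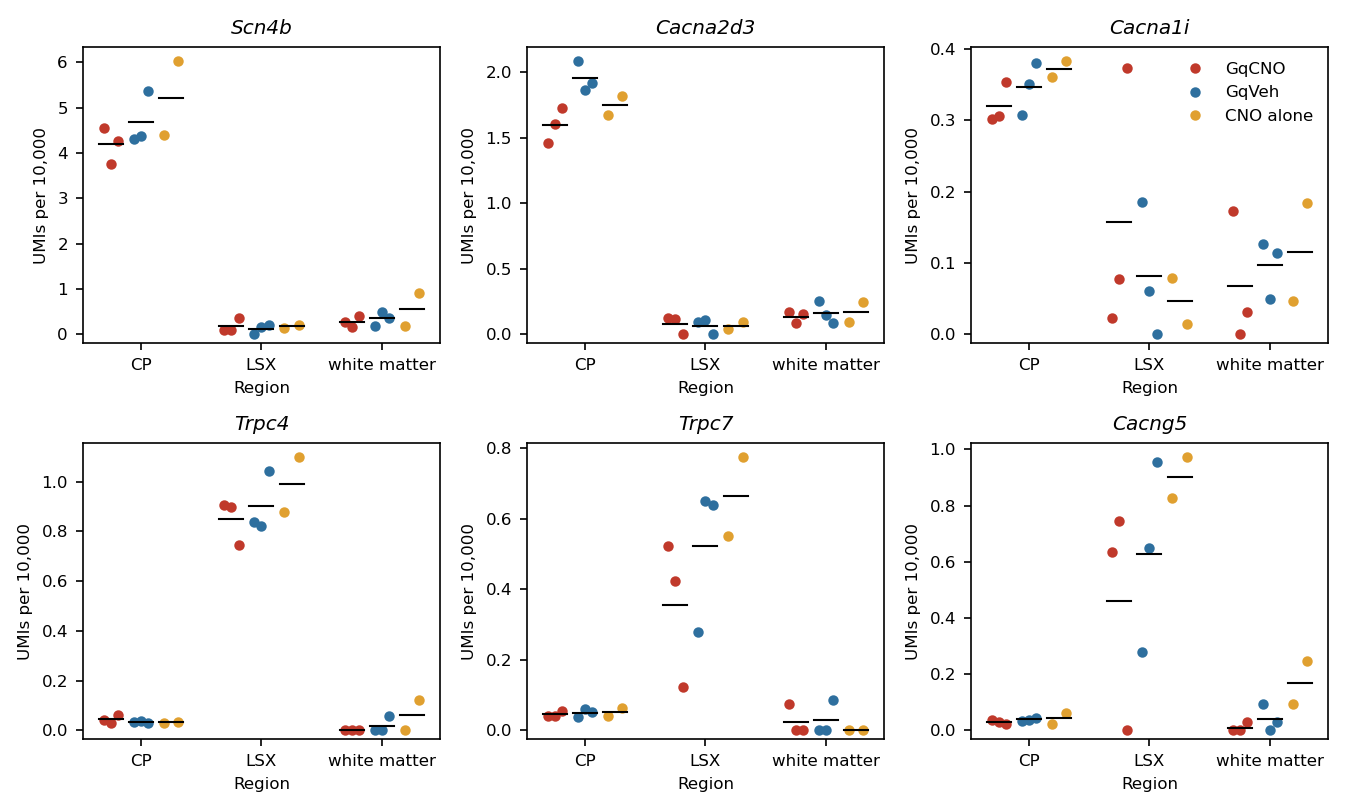
Levels of 6 channel genes in the CP, LSX and white matter by mouse. Each point is 1 mouse (y axis, UMIs per 10000), colours are groups and black bars are group means. In control mice Scn4b, Cacna2d3 and Cacna1i are highest in the CP, and Trpc4, Trpc7 and Cacng5 are high in the LSX; the GqCNO mouse lowest for Trpc7 and Cacng5 and highest for Cacna1i in the LSX is 804.

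A single channel gene passed the test after prolonged activation. Comparing GqCNO mice with the 5 control mice, limma called 1 channel gene in the VTA, Trpc6, and none in the other 5 regions. In the VTA that was 1 of 25 tested, where 1.52% of all 6312 genes were called, and 2 had an unadjusted p under 0.05, where 10.8% of all genes did. In the SN it was 0 of 23 (0.648% of 6174 genes), with 2 at an unadjusted p under 0.05 (7.82% of all genes). The counts were 0 of 26 in the thalamus (0% of 6399), 0 of 34 in the CP (0% of 10813), 0 of 39 in the LSX (0% of 11036) and 0 of 30 in the white matter (0.0367% of 10902), with 1, 5, 1 and 0 at an unadjusted p under 0.05, where 3.34%, 3.7%, 3.19% and 2.96% of all genes had one. edgeR on the recovered UMIs likewise called Trpc6 in the VTA and 0 members in each of the other regions. The rest of the listed members, 25 in the SN and 23 in the VTA, were too low to test.

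In the VTA, Trpc6 was near 0 in GqCNO mice. The level was 0.120 in mouse 801, from 2 UMIs, and 0 in mice 804 and 781, among 166825, 40212 and 89008 UMIs. The control mice had 9, 11, 2, 12 and 11 UMIs, or 0.314 to 1.05. A count of 0 allows up to 0.746 in mouse 804 and 0.337 in mouse 781 (3 UMIs), both above the lowest control value. The GqCNO mean, 0.0400, was under the filter on low values, so Trpc6 was tested only because of its level in control mice. Every GqCNO value lay below every control value, which was so for 4.86% of all genes tested in the VTA in this direction and for 2 of the 25 channel genes, Trpc6 and Scn8a. The log2 difference was −1.02 ± 0.26 (SE; adjusted p = 0.0474, limma). It was −1.24 against GqVeh (adjusted p = 0.0548) and −0.68 against CNO alone (adjusted p = 0.799), with unadjusted p = 0.000295 and 0.0474. Trpc6 was the 1 channel gene of 25 with an unadjusted p under 0.05 against each control group in the same direction, where 3.9% of all genes were. Trpc6 is among the genes the study itself picked from these mice, so this is not independent evidence of its direction.

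The pooled VTA ratio of GqCNO over controls was 0.144 (exact 95% interval 0.0169 to 0.550), from 2 and 45 UMIs. The interval covers counting error only and leaves out the spread between mice, so it is no test of the groups. CNO alone mice C1W7 and C2W2 held 350222 and 291469 of the 956728 control UMIs pooled. Within the array pair that held mice 801 and 804 the log2 difference was −1.10, and within the other pair −1.04. The call did not survive leaving out any of the 8 mice: the adjusted p in limma was then between 0.0506 and 0.245, with a log2 difference between −1.12 and −0.89. It was also lost with other constants added before the log, with no filter on low values (adjusted p = 0.252, limma), with the methods' t-test and without the VTA columns of mice 785 and 804, which held the fewest UMIs (−0.91).

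In the SN, Trpc6 lay the same way without passing the test. GqCNO mice 801, 804 and 781 had 0, 1 and 0 UMIs, and the control mice had 2 to 6. All 3 GqCNO values, 0 to 0.171, lay below all control values, 0.417 to 1.72, as for 2 of 23 channel genes in this direction (Trpc6 and Cacnb3) and 3.76% of all genes tested. The columns of mice 801 and 781 held 1 disc each, and their counts of 0 allow up to 3.86 and 2.04 (3 UMIs), above every control value, so they do not set a level below the controls. Every GqCNO value was also under the filter on low values, so Trpc6 was tested only because of its level in control mice. The log2 difference was −1.32 ± 0.56 (adjusted p = 0.520, limma), and −0.86 without the columns of mice 801, 781 and 784, which held the fewest UMIs. The SN response minus the VTA response was −0.30 ± 0.60 and did not pass the test (adjusted p = 0.956, limma). Of 21 channel genes, 0 passed that test and 0 had an unadjusted p under 0.05, where 0% of all 5341 genes passed.

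Away from the dopaminergic regions the levels of Trpc6 overlapped between groups. In the CP they were 0.0819, 0.0535 and 0.0706 in GqCNO mice and 0.0418 to 0.0893 in control mice. In the LSX they were 0 to 0.128 and 0.0859 to 0.244 (−0.93 ± 0.47, adjusted p = 0.911), or −0.50 without the LSX column of mouse 804. In the thalamus 0 UMIs among 832419 in GqCNO mice allow a level up to 0.0360 (3 UMIs), which does not separate them from the control level of 0.0191.

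Cell type markers moved in the same discs, although discs rich in astrocyte or microglia markers had been dropped by the authors. In the VTA the summed level of the 9 dopamine neuron markers was 14.9 to 41.5 in GqCNO mice and 55.0 to 85.5 in control mice, with 5 of 8 tested lower, and none of the 9 was at 0 in either. The sum of 5 neuron markers was 13.2 to 19.2 against 24.0 to 35.6, with 2 of 5 lower. The sum of 8 microglia markers was 19.9 to 48.0 against 1.55 to 12.7, with 4 of 7 higher, and that of 6 astrocyte markers 17.1 to 25.7 against 5.42 to 13.8, with 2 of 6 higher. In the SN the dopamine neuron markers summed to 15.4 to 65.2 in GqCNO mice and 57.0 to 98.9 in control mice (4 of 9 lower), with 1 of the 9 at 0 in all GqCNO mice, and the microglia markers to 23.1 to 41.4 and 1.06 to 21.5 (2 of 7 higher). Blood markers in the SN were at 7.47 to 32.1 and 0.202 to 18.5 (3 of 4 higher), astrocyte markers at 14.3 to 31.0 and 7.40 to 16.7 (1 of 6 higher), and neuron markers at 10.8 to 18.3 and 12.9 to 35.0. Beyond the ratios that follow, the part of these markers in the Trpc6 values was not tested.

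Trpc6 was also set against the marker UMIs of the same discs. In the VTA, per 1000 UMIs of the dopamine neuron markers, the 3 GqCNO mice had 0 to 2.89 Trpc6 UMIs and the control mice 3.67 to 15.1, and per 1000 UMIs of the neuron markers 0 to 6.25 and 11.4 to 32.7. Neither pair of ranges overlapped, on 2 UMIs in GqCNO mice, both from mouse 801. The share of all genes separated in this way was not computed. Mouse 804 had 60 and 53 of these marker UMIs, and at the pooled control ratios of 6.36 and 16.6 per 1000 that is under 1 Trpc6 UMI, so its 0 does not bear on the ratio. Mouse 781 had 365 and 146, which at these pooled ratios is under the 3 UMIs that a count of 0 allows. Its 0 therefore does not set a ratio below the pooled control ratios. The medians of the control mice were higher, at 9.81 and 21.7 per 1000, so this limit depends on the reference taken. In the SN the ranges overlapped per 1000 dopamine neuron marker UMIs, at 0 to 8.13 and 5.20 to 27.0, and per 1000 neuron marker UMIs, at 0 to 15.9 and 11.9 to 133.

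**Figure D4:**
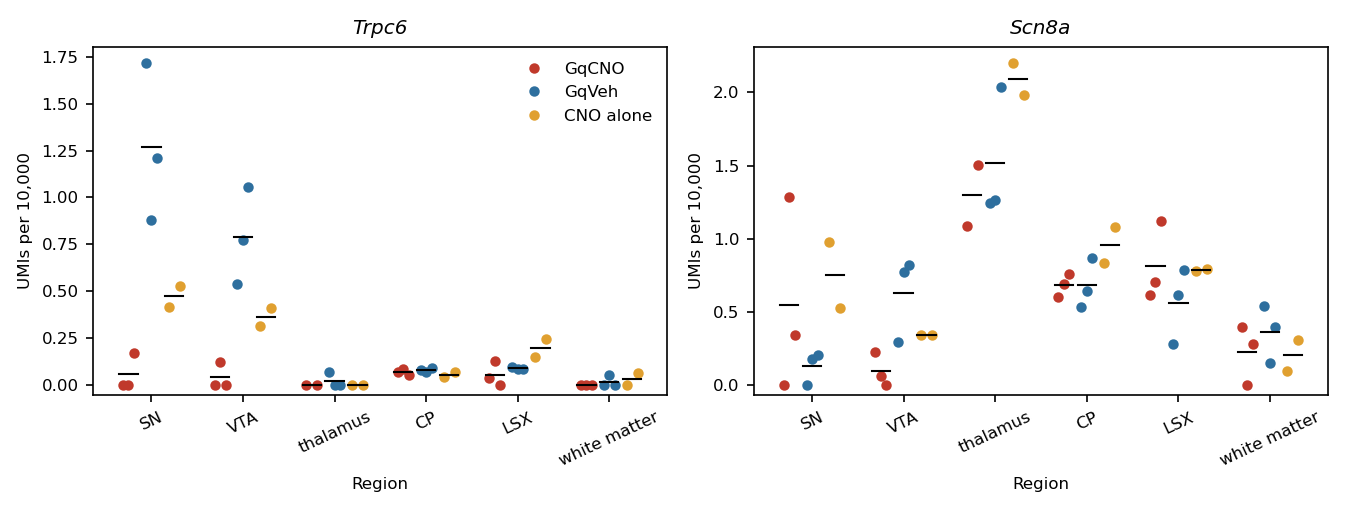
Trpc6 (left) and Scn8a (right) by region and mouse. Each point is 1 mouse (y axis, UMIs per 10000), colours are groups and black bars are group means; the thalamus has 2 GqCNO mice. All GqCNO points for Trpc6 in the SN and VTA, and for Scn8a in the VTA, lie below all control points.

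Scn8a, which encodes the sodium channel that dominates spike initiation sites in many neurons, was next in the VTA. Its level was 0.0599, 0 and 0.225 in GqCNO mice 801, 804 and 781, from 1, 0 and 2 UMIs, and 0.294 to 0.820 in control mice, from 37 UMIs. Every GqCNO value was under the filter on low values, so Scn8a was tested there only because of its level in control mice. The count of 0 in mouse 804 allows up to 0.746, inside the control range, so it does not set a level below the controls. The log2 difference was −0.75 ± 0.27 (unadjusted p = 0.0105 and adjusted p = 0.253, limma) and did not pass the test. Per 1000 neuron marker UMIs its ranges overlapped (0 to 13.7 and 11.2 to 25.5). In the SN, Scn8a was 1.29, 0.343 and 0 in GqCNO mice and 0 to 0.973 in control mice (0.16 ± 0.55, a sign that turned in 4 alternatives).

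The remaining pacemaking genes were measured with wide errors in the SN and VTA. In the VTA, Hcn2 was 1.32, 1.99 and 1.46 in GqCNO mice 801, 804 and 781, and 1.72 to 3.10 in control mice. The log2 difference was −0.45 ± 0.25 (adjusted p = 0.538, limma), and in the SN it was 0.50 ± 0.49. Hcn3 in the VTA was 0.360 to 0.746 in GqCNO mice and 0 to 0.442 in control mice (0.43 ± 0.28), and Nalcn 0.449 to 0.539 and 0 to 1.10 (0.20 ± 0.31). The groups overlapped for all 3.

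Among the calcium channel pores tested in the VTA, log2 differences were −0.39 for Cacna1a, −0.16 for Cacna1b (a sign that turned in 2 alternatives), −0.46 for Cacna1e and −0.34 for Cacna1g, and none passed. Among sodium channel pores besides Scn8a the most negative was −0.46, for Scn1a, and Scn2a, Scn3a and Scn9a were above 0. Each of these genes had opposite signs within the 2 array pairs. The differences were −0.94 and 0.12 for Scn1a, 0.39 and −0.41 for Scn2a, 0.21 and −0.32 for Scn3a, and 0.26 and −0.50 for Scn9a. In the SN, Scn3a had no UMI in any GqCNO mouse and 0, 3, 4, 4 and 6 in control mice (−1.10 ± 0.53, adjusted p = 0.627, limma). It was the second of the 2 genes there with an unadjusted p under 0.05, and was tested only because of its level in control mice.

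Over all channel genes tested, the median log2 difference was −0.30 in the SN and −0.20 in the VTA, against −0.08 and −0.06 over all genes. In the VTA 6 of 25 were above 0, against 43.2% of all genes, and in the SN 9 of 23, against 44.9%. Neuron markers in the VTA summed to 13.2 to 19.2 in GqCNO mice and 24.0 to 35.6 in control mice. The part of neuron content in these medians and counts was not tested. The summed level of the 48 genes was 10.7 to 16.9 in the VTA of GqCNO mice and 15.6 to 22.1 in control mice, and these ranges overlapped.

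**Figure D5:**
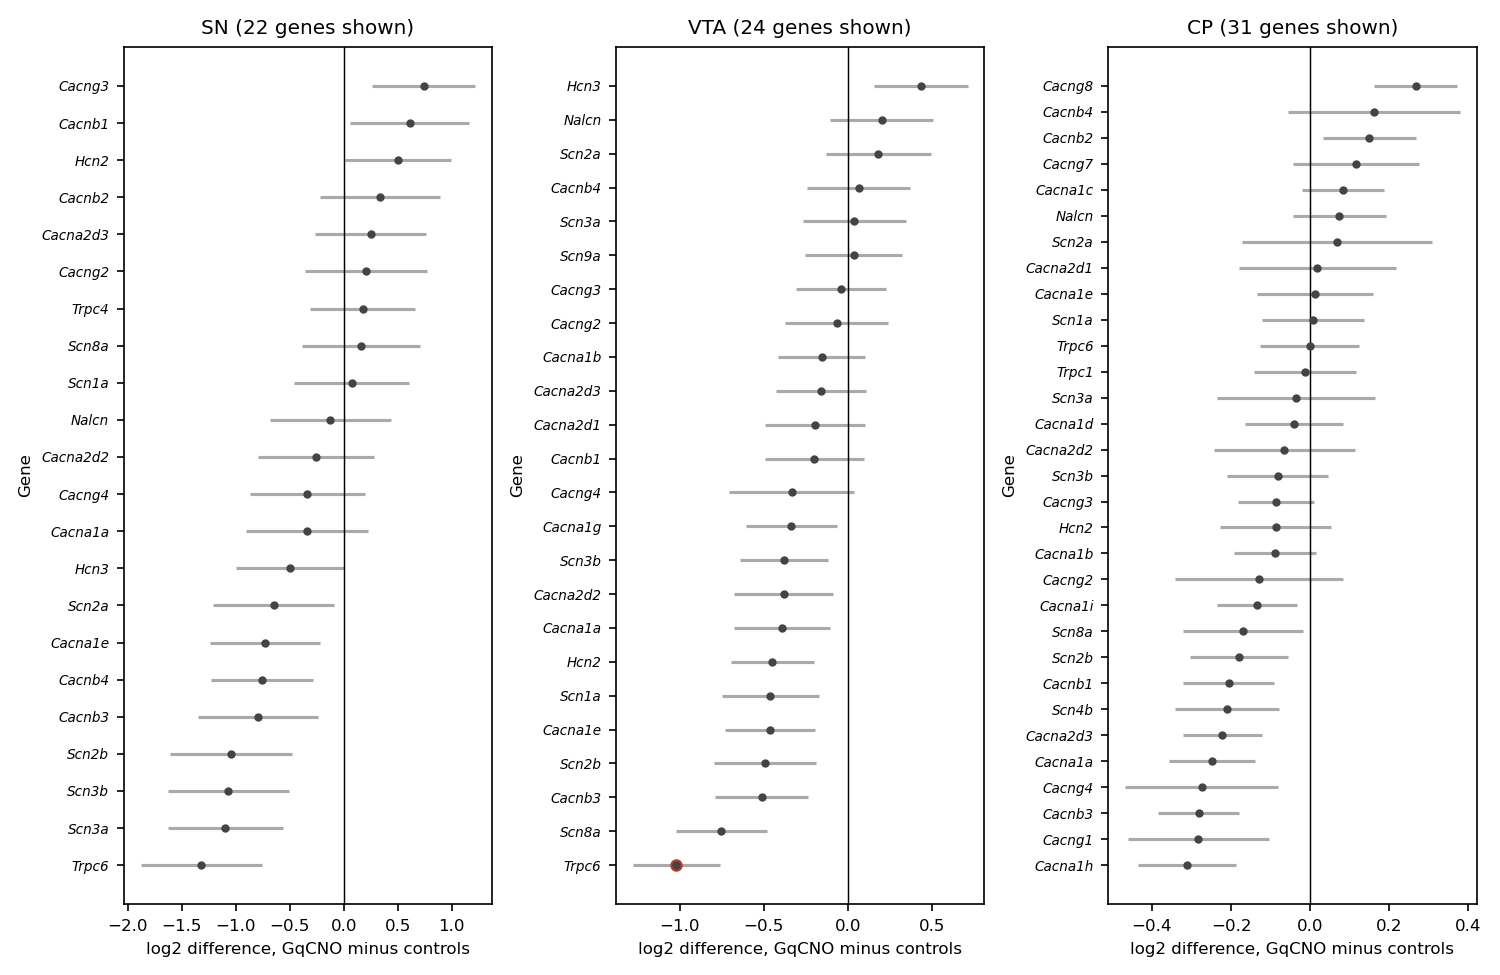
Log2 difference of GqCNO minus the 5 control mice (x axis) for channel genes tested in the SN, VTA and CP, sorted by size. Points are fitted differences, bars are 1 SE, and red marks an adjusted p under 0.05 in limma. Trpc6 is the lowest gene in the SN and VTA, and the CP differences plotted lie between −0.31 and 0.27.

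In the CP, the target of nigral axons, counts were large and differences small. All 34 tested genes had log2 differences between −0.31 and 0.32. Cacnb3, a beta subunit gene, had the smallest unadjusted p: 0.982, 1.01 and 1.11 in GqCNO mice 801, 804 and 781, and 1.06 to 1.38 in control mice, a difference of −0.28 ± 0.10 (unadjusted p = 0.0187 and adjusted p = 0.999, limma). Cacna1h (−0.31), Cacna1a (−0.25), Cacna2d3 (−0.22) and Cacng8 (0.27) also had an unadjusted p under 0.05. Cacng8 was the 1 channel gene whose GqCNO values, 0.0867 to 0.0977, all lay above the control values, 0.0572 to 0.0790, which held for 1.43% of all genes in that direction.

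Cacng4, another AMPA receptor escort gene, passed in the CP when the array pair was fitted as a block, and in no other setting run. Its level was 1.64, 1.69 and 1.26 in GqCNO mice 801, 804 and 781 and 1.37 to 2.52 in control mice. The log2 difference was then −0.42 (adjusted p = 0.0311, limma) against −0.27 (adjusted p = 0.999) without the block, and −0.51 and −0.29 within each pair. Scn4b was 3.76, 4.26 and 4.56 in the CP of GqCNO mice and 4.31 to 6.04 in control mice (−0.21), and did not pass.

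In the thalamus Cacnb3 was lowest in p, at 0.585 and 0.464 in GqCNO mice and 0.640 to 1.20 in control mice (−0.42 ± 0.20, adjusted p = 0.998). Scn4b was the 1 of 26 whose GqCNO values, 0.540 and 0.464, lay above all control values (3.67% of all genes), and Cacnb3 the 1 whose values lay below (3.97%). In the white matter the smallest p was that of Scn1a (0.93, adjusted p = 0.998).

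No channel gene passed between the control groups. For GqVeh against CNO alone, limma called 0 of 23 in the SN (0.0648% of all genes called), 0 of 25 for the VTA (0.0792%) and 0 of 34 for the CP (0%), with 0, 0 and 4 at an unadjusted p under 0.05 (1.46%, 2.04% and 3.68% of all genes), and edgeR also called 0. GqCNO against GqVeh gave 0 in the SN (0.194%), VTA (0.475%) and CP (0.0462%), with 1, 2 and 5 at an unadjusted p under 0.05 (6.09%, 10.9% and 4.04% of all genes), where edgeR called 0, 1 and 0. GqCNO against CNO alone gave 0 in the SN (0.615%), VTA (1.12%) and CP (0%), with 3, 4 and 2 (6.06%, 6.1% and 2.52%), where edgeR called 0 in each. These comparisons share the GqCNO or control mice and are not independent.

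Genes that work with these channels were taken as a list of 43: the NALCN complex, HCN and sodium channel partners, calcium channel partners and inhibitors, store-operated entry, and calcium stores and extrusion. Against all controls limma called 0 of 17 tested in the SN, 0 of 19 in the VTA, 0 of 23 in the thalamus, 0 of 35 in the CP, 0 of 35 in the LSX and 0 of 32 in the white matter, with 3, 1, 1, 2, 1 and 0 at an unadjusted p under 0.05, all lower. Of all genes, 0.648%, 1.52%, 0%, 0%, 0% and 0.0367% were called in these regions, and 7.82%, 10.8%, 3.34%, 3.7%, 3.19% and 2.96% had such a p in either direction. Fgf13, an intracellular sodium channel partner, had the smallest p in the SN (adjusted p = 0.283) and was at −0.64 in the VTA (adjusted p = 0.354). Cbarp, an inhibitor of voltage-gated calcium channels, was −1.49 in the SN (adjusted p = 0.309).

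Between regions more partners passed. Against the thalamus, 8 of 18 were lower in the SN and none higher, where 10% of all genes were lower and 5.45% higher. In the VTA of control mice 10 of 22 were lower and 1 higher, Atp2b4 (0.60), where 13.9% of all genes were lower and 12.9% higher. The lowest was the plasma membrane calcium pump gene Atp2b1, at −3.32 in the SN and −3.22 in the VTA. Unc80 of the NALCN complex was −1.79 and −1.36, and Ank3, the ankyrin that holds sodium channels at the axon's start, −1.48 and −1.40.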

How the data were processed

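The authors deposited, per array and region, median-normalized signal averaged over the chosen discs of each mouse (Space Ranger and mm10, per the submitters' processing notes). The authors chose discs by position and marker genes. Each deposited signal was a whole multiple of 1 UMI's worth (100% of values, within 0.05 of a step), so UMIs were recovered and rescaled to 10000 a column, because the 4 arrays had been normalized separately. Midbrain and striatal arrays were never tested against each other.

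Genes with a mean of 0.25 (midbrain) or 0.05 (striatum) were tested with limma 3.58.1 (variance trend, R 4.3.3) on log2(UMIs per 10000 + 0.5 or 0.05), so fold changes of low genes are understated. GqCNO was set against the control groups weighted by their mice, regions against each other by the difference within each of the 5 control mice, and the SN response against the VTA response by that difference in all 8 mice. Benjamini-Hochberg adjustment ran over all genes tested in a region. SEs and p-values of limma rest on the spread between mice, moderated by that of genes of like level. For the SN against the VTA or thalamus, and the SN response against the VTA response, that shared spread set them. They do not measure the single gene's own spread in those comparisons. edgeR 4.0.16 (quasi-likelihood) on the recovered UMIs called 54 genes in the SN, 142 in the VTA, 1 in the CP, 5 in the white matter and none in the thalamus and LSX against all controls. Each of 2 array pairs held all 3 groups. Scripts were tested on simulated data, in which modest changes were never called between groups in the VTA and rarely called between the VTA and thalamus. A gene that did not pass is therefore not shown to be unchanged between groups or alike between regions. The members, lists and named genes (the pacemaking set, every call, up to 8 genes per direction between regions, and the smallest p per region) were chosen with earlier results of these data known; other genes were named after their values were seen. A few members are not reported here by name.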

Additional observations from a re-analysis of the deposited data

How the results depend on the processing

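The Trpc6 call in the VTA kept its direction in all 18 alternatives but stayed past the threshold in 5: values as deposited, TMM scaling, edgeR, the array pair as a block and genes in both files only. The count of channel genes called there was 0 with a constant of 0.1 or 1, with no filter on low values, with the methods' t-test, without the columns of few UMIs (an alternative chosen after seeing the data), and 0 to 0 when each mouse was left out. edgeR called 1 gene, Trpc6, against GqVeh in the VTA. With the array pair as a block, 1 gene, Cacng4, was called in the CP against all controls and 1 against GqVeh. The sign turned for 2 values near 0: Scn8a in the SN with TMM scaling (−0.051), without the columns of few UMIs (−0.13) and without GqVeh mouse 784 or GqCNO mouse 801 (between −0.33 and 0.59 with each mouse left out), and Cacna1b in the VTA with edgeR (0.026) and without GqCNO mouse 781 (0.0057). Over all genes, 96 were called in the VTA against all controls, 41 with a constant of 0.1, 8 with no filter, 0 with the t-test and 37 to 116 with a mouse left out, and in the CP 0, against 47 when array pair was blocked. The cause was not tested. Counts between regions stayed within 1.5 times: 10 to 16 for the SN and 13 to 20 for the VTA against the thalamus, 22 to 30 for the CP against the LSX, 28 to 30 for the CP and 23 to 30 for the LSX against the white matter. Trpc6 was not tested in the VTA against the thalamus when GqCNO mice were added, since its mean then fell under the filter. The groups could not be paired by replicate number, since the mice carry none; regions were compared within mice, and the array pair was fitted as a block. The SN columns, at 1 to 7 discs, limit every statement on genes there, and 3 against 5 mice limit the rest.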
